A study of Mus musculus with 6 samples.

Results

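The genes described here were 10 tuft cell genes, Dclk1, Trpm5, Pou2f3, Avil, Gnat3, Sh2d6, Alox5, Gfi1b, Hpgds, and Ltc4s, chosen by symbol from the 27546 genes with values in the deposited table. All 10 were in the table. RNA-Seq had been carried out on distal colon of 3 Gm31629-/- mice and 3 WT littermates, and libraries were treated here as 1 per mouse. Gm31629 is a long noncoding RNA gene, and the knockout allele is a deletion carried in the germ line, so every cell type of the colon lacked it. Mice of both groups were 8 weeks old, of strain C57BL/6 by the labels and C57BL/6J by the methods, and all of them had drunk water with 3% dextran sulfate sodium (DSS), which damages the lining of the colon, for 7 days before they were killed on day 8. Without untreated mice, the comparison was between genotypes under injury.

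Tuft cells are rare chemosensory cells of the epithelium, with a tuft of long microvilli held up by actin bundles. They detect luminal signals with the machinery of taste, in which a receptor acts through a gustducin G protein (Gnat3) and a phospholipase to release calcium, which opens the cation channel Trpm5. Their identity depends on the POU-domain factor Pou2f3, and they answer with interleukin-25, cysteinyl leukotrienes, and prostaglandins, which act on type 2 innate lymphoid cells, nerves, and the epithelium. Several of these genes are not restricted to tuft cells. Dclk1 and Avil are also transcribed in neurons, Alox5, Hpgds, and Ltc4s in mast cells and other leukocytes, and Gfi1b in megakaryocytes and erythroid precursors.

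The promoters of 3 genes are shown because their genes part in the results, with Hpgds and Gnat3 changing against Trpm5 within the same libraries. Each line gives the 250 bases before the transcription start in the direction of transcription, from RefSeq on GRCm38.p6. They lie at chr6:65144731-65144980 on the minus strand (Hpgds), chr5:17962320-17962569 on the plus strand (Gnat3), and chr7:143094643-143094892 on the minus strand (Trpm5). Capitals mark the octamer ATGCAAAT, the site class bound by POU-domain factors, and AAATCA, a core bound by GFI factors, each on either strand.
Hpgds: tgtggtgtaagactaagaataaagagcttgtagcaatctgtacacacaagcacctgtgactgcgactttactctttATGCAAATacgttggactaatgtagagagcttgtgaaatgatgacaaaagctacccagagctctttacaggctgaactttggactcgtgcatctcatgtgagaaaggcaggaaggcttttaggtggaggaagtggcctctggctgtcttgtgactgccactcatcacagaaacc
Gnat3: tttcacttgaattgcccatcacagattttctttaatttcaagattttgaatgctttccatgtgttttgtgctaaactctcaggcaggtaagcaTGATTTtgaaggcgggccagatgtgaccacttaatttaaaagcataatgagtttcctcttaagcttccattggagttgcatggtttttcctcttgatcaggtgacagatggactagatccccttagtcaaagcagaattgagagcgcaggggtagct
Trpm5: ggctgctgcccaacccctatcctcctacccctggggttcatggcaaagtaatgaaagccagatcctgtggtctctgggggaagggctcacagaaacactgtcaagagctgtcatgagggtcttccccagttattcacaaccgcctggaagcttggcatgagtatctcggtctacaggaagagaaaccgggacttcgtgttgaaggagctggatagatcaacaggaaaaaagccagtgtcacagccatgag
The RefSeq table held 10 promoters for 9 of the 10 genes, and no entry was given for Pou2f3. In windows of 250 bases before to 50 bases after the start, the octamer was found in 1 of these 10 promoters, that of Hpgds, 174 bases before the start and in forward orientation. It was found in 1.74% of all 32851 promoters in the table. AAATCA was found in 4 of the 10 (Avil, Gfi1b, Gnat3, and 1 of the 2 Dclk1 promoters) and in 14.0% of all promoters. Neither the octamer nor AAATCA was found in this window of Trpm5. Also searched were GATAA, found in 3 of the 10 and in 25.4% of all promoters, and TATAAA, found in 0 of the 10 and in 13.6%. These are matches of letters only.

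The libraries were of even depth, at 18005600 to 18794700 fragments as recovered from the FPKM values (fragments divided by gene length and library depth). They differed in the markers of other cell types. Summed levels of 9 smooth muscle genes were 1142 to 1745 FPKM in Gm31629-/- mice and 9.21 to 26.9 FPKM in WT mice, and the summed levels of 14 epithelial genes were 8208 to 9707 and 12906 to 14043 FPKM. Fibroblast genes summed to 161 to 446 and 13.2 to 28.9 FPKM (8 of 8 called higher) and enteroendocrine genes to 1081 to 2545 and 262 to 345 FPKM (4 of 10 called higher, 1 lower). Over all 14657 genes tested, 2704 were called higher and 680 lower, the background for these and later counts of called marker genes. The library labelled Gm31629-/- mouse 1 held the Y-linked Ddx3y at 9.27 FPKM and Xist at 0.00606 FPKM, whereas the other 5 held no Ddx3y and Xist at 8.35 to 13.8 FPKM, although the study's methods name male mice. Fold changes of the 10 genes are therefore given with and, where a value could be had, without this mouse. In bulk tissue, more tuft cells and more RNA per tuft cell cannot be told apart.

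Across the 10 genes, Hpgds rose in Gm31629-/- mice, Dclk1, Gnat3, and Avil were higher by an adjusted p under 0.05 with fold changes short of the call threshold, and no gene was called lower. A gene was called at a limma adjusted p under 0.05 with a log2 fold change above 1 or below -1 on the log2(FPKM + 1) scale, a scale that understates changes of genes near or under 1 FPKM. Of the 7 genes tested, 1 was called higher, against 18.4% of all 14657 genes tested. Without the fold threshold, 4 of 7 were higher at an adjusted p under 0.05, against 28.9% of all genes tested, and with 0.1 in place of 1 as the pseudocount 4 of 7 were called higher, against 25.2%. The median log2 fold change of the 7 genes was 0.81, and that of all genes tested was 0.15. Pou2f3, Gfi1b, and Ltc4s had means under 0.5 FPKM over the 6 mice and were not tested. Dclk1, Gnat3, and Hpgds had WT means under 0.5 FPKM and passed this filter through the Gm31629-/- mice, so these counts and this median are descriptions. The 3 Gm31629-/- values lay above the 3 WT values for 6 of the 10 genes (Dclk1, Avil, Gnat3, Alox5, Gfi1b, and Hpgds), against 31.0% of all genes listed, and the groups overlapped for the other 4.

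**Figure D1:**
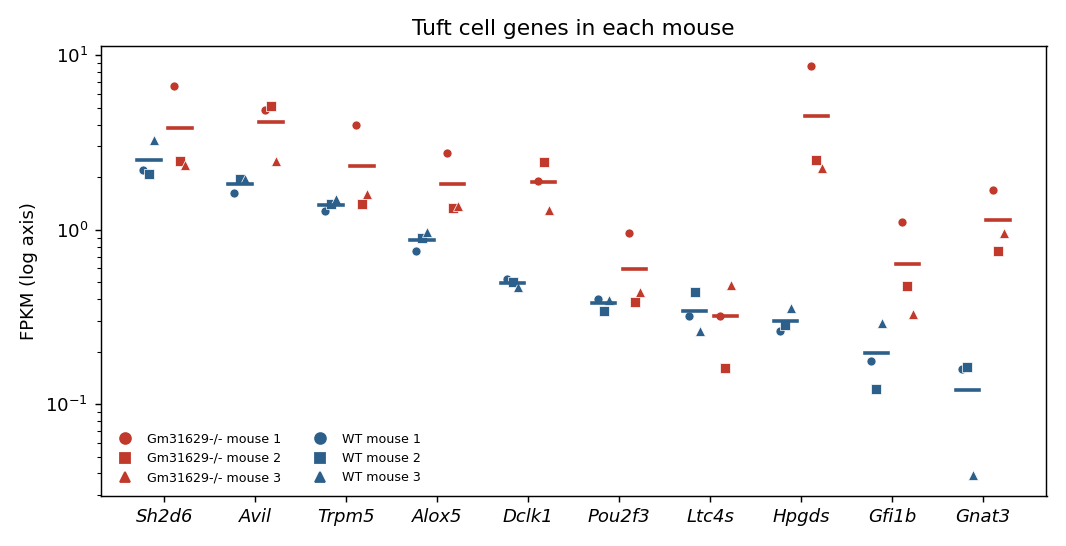
FPKM of the 10 tuft cell genes in each mouse on a log axis, ordered by the WT mean, with red for Gm31629-/-, blue for WT, a marker shape per mouse number, and a horizontal line for the group mean. Hpgds and Gnat3 stand farthest above WT, Trpm5, Pou2f3, and Sh2d6 are near WT except in Gm31629-/- mouse 1, and the groups overlap for Ltc4s.

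The genes of the taste cascade came apart. Trpm5 (chr7:143069153-143094642, minus strand), the channel that depolarizes the cell, was at 3.97, 1.40, and 1.60 FPKM in Gm31629-/- mice and at 1.28, 1.41, and 1.5 FPKM in WT mice. Gm31629-/- mouse 1 was high, mouse 3 lay just above the WT range, and mouse 2 lay within it. The log2 fold change was 0.39 ± 0.29 (SE, n = 3 per group, limma adjusted p = 0.296), and without Gm31629-/- mouse 1 it was 0.06 (adjusted p = 0.778). Gnat3 (chr5:17962549-18019834, plus strand), the α subunit of gustducin, was at 1.68, 0.756, and 0.960 FPKM in Gm31629-/- mice and at 0.159, 0.163, and 0.0391 FPKM in WT mice. All 3 Gm31629-/- mice lay above all WT mice, with 85 fragments in all against 9 in WT, and the group means differed 9.39-fold. The log2 fold change was 0.91 ± 0.19 (SE, limma adjusted p = 0.00955), under the threshold of 1, and with a pseudocount of 0.1 it was 2.47 (limma adjusted p = 0.00524). Without Gm31629-/- mouse 1 the mean of Gnat3 fell under the filter and no test was made.

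Neither transcription factor was tested at these levels. Pou2f3 (chr9:43123939-43210369, minus strand) was at 0.950, 0.386, and 0.441 FPKM in Gm31629-/- mice and at 0.403, 0.342, and 0.396 FPKM in WT mice. As with Trpm5, Gm31629-/- mouse 1 was high and the other 2 were close to the WT values. Gfi1b (chr2:28609450-28621982, minus strand), a zinc-finger repressor, was at 1.10, 0.474, and 0.327 FPKM against 0.177, 0.121, and 0.291 FPKM, without overlap but with 64 fragments in Gm31629-/- and 20 in WT in all. With the filter set at a mean of 0.1 FPKM, the log2 fold changes were 0.42 ± 0.18 (SE, limma adjusted p = 0.109) for Gfi1b and 0.19 ± 0.16 (adjusted p = 0.362) for Pou2f3. Without Gm31629-/- mouse 1 the differences in mean log2(FPKM + 1) were 0.23 for Gfi1b and 0.034 for Pou2f3, with no test made. The 8 markers of megakaryocytes and platelets summed to 16.4 to 25.3 FPKM in Gm31629-/- and 7.66 to 11.7 FPKM in WT, with Treml1 at 0 in all WT mice, and 1 of the 3 tested was called higher. Those of erythroid cells, 8 genes, summed to 144 to 3006 FPKM and 38.2 to 141 FPKM, with 3 of 5 called higher and the largest sum in Gm31629-/- mouse 1. The part of these cells in the Gfi1b values was not tested.

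Dclk1 and Avil, a microtubule-associated kinase and an actin-bundling protein of the villin family, were higher in all Gm31629-/- mice. Dclk1 (chr3:55242364-55539068, plus strand) was at 1.90, 2.45, and 1.30 FPKM in Gm31629-/- mice and at 0.520, 0.501, and 0.466 FPKM in WT mice, which is 3.80-fold between the means. The groups did not overlap and WT mice were nearly level. The log2 fold change was 0.93 ± 0.19 (SE, limma adjusted p = 0.00755), it was 0.91 (adjusted p = 0.0152) without Gm31629-/- mouse 1, and the adjusted p stayed under 0.05 when any of the 6 mice was left out. Avil (chr10:127000709-127020994, plus strand) was at 4.85, 5.10, and 2.47 FPKM against 1.62, 1.94, and 1.94 FPKM, with a log2 fold change of 0.81 ± 0.24 (SE, limma adjusted p = 0.0317). Mouse 3 was the lowest of the Gm31629-/- mice for both genes. For Avil the adjusted p was under 0.05 in 1 of the 6 fits that left out a mouse, the fit without Gm31629-/- mouse 3, and it was 0.075 without Gm31629-/- mouse 1. It was 0.0511 with the replicate number as a block and 0.0623 with no filter.

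Markers of enteric neurons, which also transcribe Dclk1 and Avil, moved in the same direction. The 12 neuronal genes summed to 172, 272, and 62.4 FPKM in Gm31629-/- mice 1 to 3 and to 2.76 to 5.34 FPKM in WT mice, 10 of the 11 tested were called higher, and Elavl4 was at 0 in all WT mice. Among the Gm31629-/- mice the order of this sum, mouse 2 over mouse 1 over mouse 3, was also the order of Dclk1 and of Avil, whereas Trpm5 was highest in mouse 1. Summed glial, enteroendocrine, macrophage and monocyte, and megakaryocyte and platelet genes had this order too, so it was not particular to neurons. The other marker lists had other orders. The 6 glial genes summed to 11.5 to 32.6 FPKM against 0.174 to 0.285 FPKM. Exons of Avil also share 165 bases with Tsfm on the opposite strand, which was at 4.35 FPKM in Gm31629-/- and 8.62 FPKM in WT mice on average. How much of the Dclk1 and Avil values came from nerve tissue was not tested.

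Sh2d6 (chr6:72513641-72521707, minus strand), an SH2-domain adaptor of tuft cells, was the most abundant of the 10 genes in WT mice, at 2.21, 2.08, and 3.28 FPKM, and was at 6.66, 2.46, and 2.35 FPKM in Gm31629-/- mice. Gm31629-/- mouse 1 was high, and the other 2 lay within the WT range. The log2 fold change was 0.36 ± 0.34 (SE, limma adjusted p = 0.422), and it was -0.032 (adjusted p = 0.913) without Gm31629-/- mouse 1.

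The 3 enzymes of eicosanoid synthesis differed from each other. Hpgds (chr6:65117293-65144908, minus strand), hematopoietic prostaglandin D synthase, was at 8.63, 2.5, and 2.27 FPKM in Gm31629-/- mice and at 0.261, 0.285, and 0.356 FPKM in WT mice. Every Gm31629-/- mouse was above every WT mouse, with 1585 fragments in all against 107, and the means differed 14.9-fold. The log2 fold change was 1.88 ± 0.40 (SE, limma adjusted p = 0.00927). Without Gm31629-/- mouse 1, the highest, it was 1.38 (adjusted p = 0.00099), and Hpgds was called in all 6 fits that left out a mouse, with log2 fold changes of 1.38 to 2.16. Alox5 (chr6:116410077-116461178, minus strand), the 5-lipoxygenase that starts leukotriene synthesis, was at 2.77, 1.33, and 1.37 FPKM against 0.750, 0.893, and 0.972 FPKM. The groups did not overlap, but the log2 fold change of 0.56 ± 0.22 (SE) missed the threshold (limma adjusted p = 0.0789), and it was 0.33 (adjusted p = 0.133) without Gm31629-/- mouse 1. Ltc4s (chr11:50236461-50238616, minus strand), which conjugates leukotriene A4 to glutathione, was at 0.322, 0.160, and 0.483 FPKM against 0.320, 0.438, and 0.262 FPKM. It was read by 18 and 19 fragments in all, and no difference was detectable at this depth. Its difference in mean log2(FPKM + 1) was -0.025, and -0.029 without Gm31629-/- mouse 1.

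Leukocyte markers also moved with genotype. The 12 macrophage and monocyte genes summed to 407, 843, and 404 FPKM in Gm31629-/- mice 1 to 3 and to 86.5 to 94.3 FPKM in WT mice, with 10 of 12 called higher, and the 11 neutrophil genes summed to 547 to 1043 FPKM and 72.6 to 131 FPKM, with 10 of 11 called higher and Camp and Ngp at 0 in all WT mice. Both sums were lower in Gm31629-/- mouse 1, where Hpgds was highest, than in mouse 2. By contrast, the smooth muscle sum was 1745, 1288, and 1142 FPKM in Gm31629-/- mice 1 to 3, the same mouse order as Hpgds. The erythroid sum was also highest in mouse 1. Summed levels of the 12 mast cell genes overlapped between groups, at 13.6 to 34.6 FPKM and 15.1 to 23.5 FPKM. Of the 7 tested, 2 were called higher. Singly, 4 of the 12 lay above WT without overlap, against 31.0% of all genes listed, and 0 lay below. The mast cell sum was lowest in Gm31629-/- mouse 1, although single markers differed in order among the mice. The 5 eosinophil genes measured summed to 2.96 to 14.6 FPKM and 0.607 to 1.51 FPKM, with Epx at 0 in all Gm31629-/- mice. The part of leukocytes, or of the other cells named here, in the Hpgds and Alox5 values was not tested beyond these levels.

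**Figure D2:**
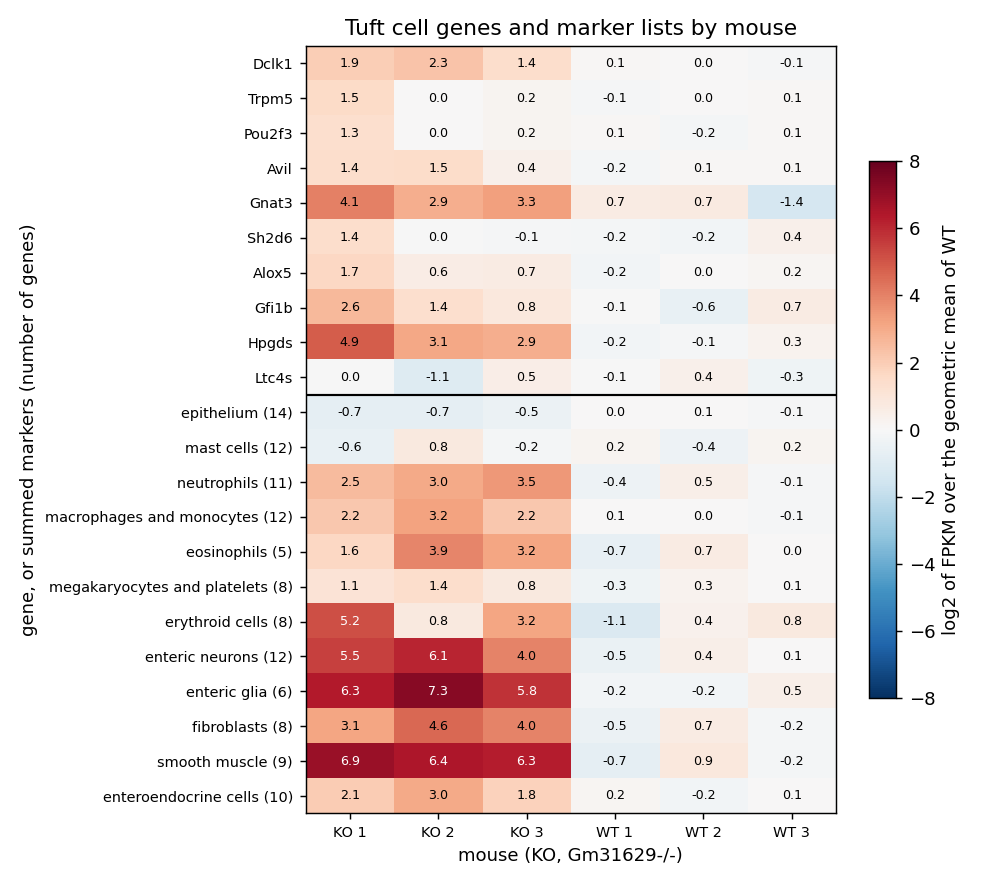
Log2 of the FPKM of each tuft cell gene (above the line) and of the summed FPKM of marker lists for other cells (below it, with the number of genes in parentheses) over the geometric mean of the 3 WT mice, by mouse, with KO for Gm31629-/-. Hpgds is highest in Gm31629-/- mouse 1 and Dclk1 in mouse 2, and muscle, nerve, and leukocyte lists are above WT in each Gm31629-/- mouse, except the mast cell list.

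A shared rise in Gm31629-/- mouse 1 ran through much of the set. In 7 of the 10 genes this mouse exceeded 1.5 times both other Gm31629-/- mice, by 1.75-fold (Gnat3) to 3.44-fold (Hpgds) over the next, with Dclk1, Avil, and Ltc4s as the exceptions. Across all 24919 genes with a value in mouse 2 or 3, 13.6% did so, and in the wider tuft cell lists described next 8 of 42 did. In lists of other cells 6 of 8 erythroid, 6 of 9 smooth muscle, 6 of 11 neutrophil, and 4 of 8 megakaryocyte and platelet genes did, so the rise was also seen in some lists outside the tuft cell genes. In the enteric neuron, glial, enteroendocrine, mast cell, and eosinophil lists 0 genes did, of 12, 6, 10, 12, and 5. The epithelial, macrophage and monocyte, and fibroblast lists each had 1, of 14, 12, and 8 genes. The threshold of 1.5 was chosen after the values were seen.

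Because tuft cell genes can move together with the number of tuft cells in a piece of tissue, each gene was also divided by Trpm5 of the same library, which removes depth and scaling. Trpm5 was chosen as the reference after the values were seen. Its exons share 220 bases with Tssc4 on the opposite strand, which was at 9.46 FPKM in Gm31629-/- and 8.87 FPKM in WT mice on average. The part of Tssc4 in the Trpm5 values, and so in the ratios, was not tested. Pou2f3 stayed at 0.239 to 0.276 of Trpm5 in Gm31629-/- mice and at 0.243 to 0.316 in WT mice, and Sh2d6 at 1.47 to 1.76 and 1.48 to 2.19, so the groups overlapped for both, mouse 1 included. By contrast, the ratio of Hpgds to Trpm5 was 2.17, 1.79, and 1.42 in Gm31629-/- mice and 0.204, 0.203, and 0.238 in WT mice. That of Gnat3 was 0.422, 0.541, and 0.60 against 0.125, 0.116, and 0.0261. The ratio was also higher without overlap for Alox5 (0.696 to 0.954 against 0.588 to 0.649), Gfi1b (0.205 to 0.339 against 0.0863 to 0.194), and Dclk1 (0.479 to 1.75 against 0.311 to 0.407), and it overlapped for Avil and Ltc4s. In all, 5 of 9 ratios were higher in Gm31629-/- mice without overlap, against 17.5% of all other genes divided in the same way. With 3 mice per group, an exact two-sided permutation test cannot give a p under 0.10, so no p is given for these ratios.

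**Figure D3:**
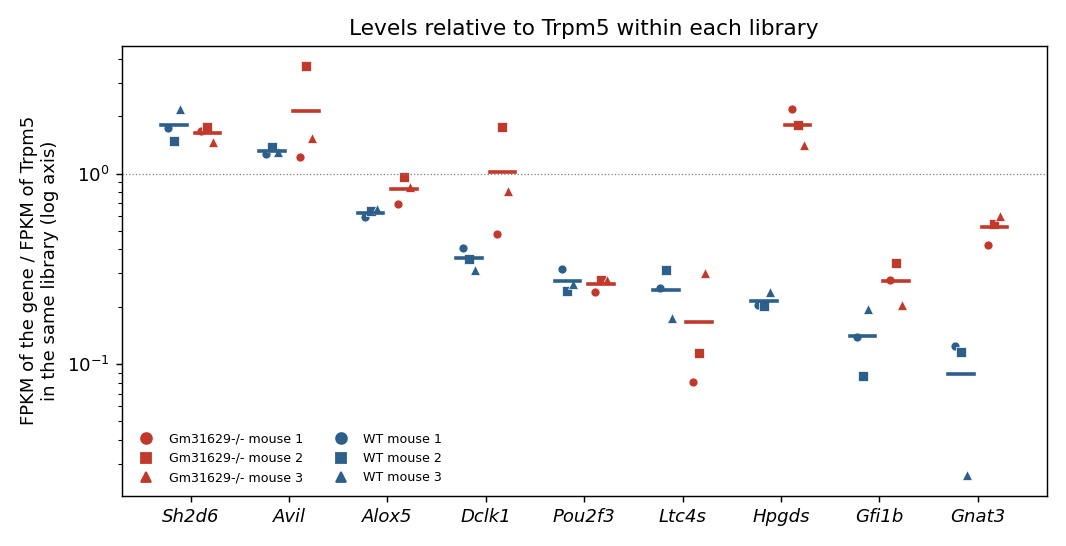
FPKM of each tuft cell gene divided by the FPKM of Trpm5 in the same library, by mouse, on a log axis, with colors, shapes, and mean lines as in the plot of FPKM by mouse. The ratios of Sh2d6 and Pou2f3 are alike in all 6 mice, and those of Hpgds and Gnat3 are separate between genotypes in every mouse.

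Levels per gene length also gave an order among the 10 genes. In WT mice the means ran from Sh2d6 (2.52 ± 0.658 FPKM, SD, n = 3) through Avil (1.84 ± 0.185), Trpm5 (1.39 ± 0.111), Alox5 (0.872 ± 0.112), and Dclk1 (0.496 ± 0.0271) to Pou2f3 (0.380 ± 0.0335), and no 2 neighbours in this order overlapped. Below Pou2f3 came Ltc4s, Hpgds, Gfi1b, and Gnat3 (0.120 ± 0.0704), whose neighbours overlapped. In Gm31629-/- mice Hpgds had the highest mean (4.47 ± 3.60) and Ltc4s the lowest (0.322 ± 0.161), and all neighbours overlapped. Hpgds thus stood eighth of 10 in WT and first in Gm31629-/- mice by the means, and within libraries it ranked 1, 2, and 3 in the Gm31629-/- mice and 8, 8, and 7 in the WT mice.

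**Figure D4:**
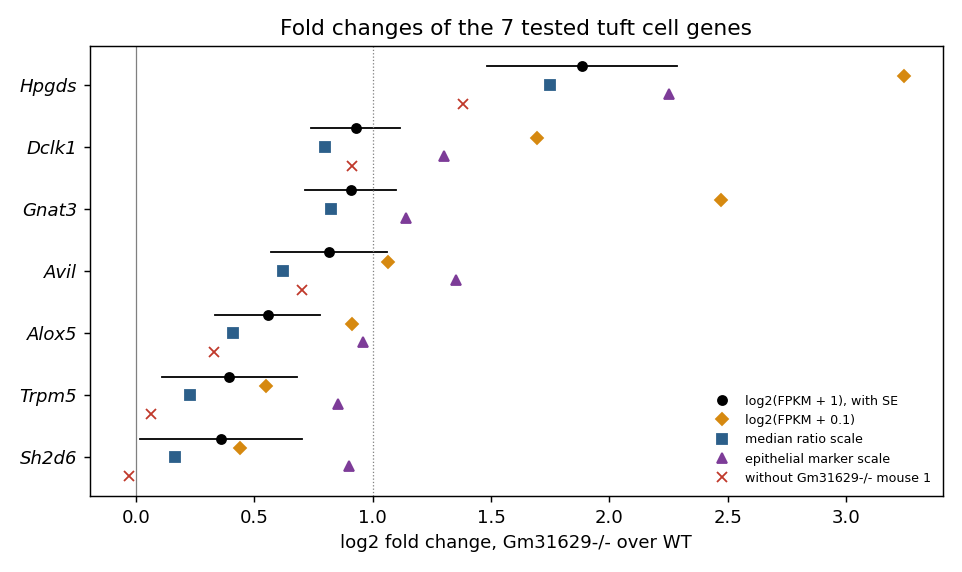
Log2 fold changes of the 7 tested genes (Gm31629-/- over WT) on the log2(FPKM + 1) scale with their SE, with a pseudocount of 0.1, on 2 other scalings, and without Gm31629-/- mouse 1. Hpgds is past the dotted line at 1 in each, Trpm5 and Sh2d6 are near 0 without mouse 1, and Gnat3 has no value there.

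Beyond the 10 genes, 4 lists of 44 genes known from tuft cells (taste cascade, transcription, signalling molecules shared with blood cells, and structural and other genes) had 42 genes in the table and 35 tested. Of these 12 were called higher and 2 lower, beside 18.4% called higher and 680 of 14657 called lower over all genes tested. The median log2 fold change was 0.64 beside 0.15 for all genes tested. Without Gm31629-/- mouse 1, 10 were called higher and 2 lower of 34 tested, against 2690 higher and 766 lower of all 14361 genes tested. In 9 of the 35 genes the WT mean was under 0.5 FPKM, so that they passed the filter through the Gm31629-/- mice, and the count and median are descriptions. In the taste cascade, Rgs13, a regulator of G protein signalling, was at 5.19, 1.51, and 1.15 FPKM in Gm31629-/- mice and at 0.490, 0.235, and 0.129 FPKM in WT mice, a log2 fold change of 1.34 ± 0.39 (SE, limma adjusted p = 0.0292). Chat, the choline acetyltransferase of tuft cells and of cholinergic neurons, was at 2.34, 1.33, and 0.910 FPKM against 0.135, 0.158, and 0.284 FPKM (log2 fold change 1.05 ± 0.23, limma adjusted p = 0.00968). Both passed the fold threshold with Gm31629-/- mouse 1 and not without it, at 0.86 and 0.83, and Rgs13 also lost its call without any 1 of the WT mice (limma adjusted p = 0.0604 to 0.0999). Chat also fell short of the fold threshold on the median ratio scale (0.95), and Rgs13 lost its call with no filter (limma adjusted p = 0.0634). Itpr3, the calcium release channel of the cascade and of other epithelial cells, fell from 46.0 ± 1.35 to 20.2 ± 6.15 FPKM (SD, n = 3), a call that was lost without Gm31629-/- mouse 1 (log2 fold change -0.96) and on a scale of epithelial markers (-0.47). Plcb2, Gnb3, and the remaining genes of this list are named after their values were seen. Plcb2, the phospholipase of the cascade, was at 1.09, 1.63, and 1.19 FPKM against 0.410, 0.505, and 0.484 FPKM (log2 fold change 0.64, limma adjusted p = 0.0153), and Gnb3, a G protein β subunit, was read by 47 fragments in Gm31629-/- mice and by 0 in WT mice, where a count of 0 allows up to 3 in each library. The succinate receptor Sucnr1 was read by 10 and 4 fragments and was not tested. Tas1r3, Tas1r1, and Gng13 had fewer fragments in Gm31629-/- mice, at 86, 8, and 0 against 100, 15, and 4, and were not tested. Ffar3 was at 0.969 and 0.391 FPKM on average (log2 fold change 0.48, limma adjusted p = 0.0731) and was not called.

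Many genes of the other lists are also expressed by leukocytes or other cells. Of 12 signalling genes shared with blood cells, 6 rose and none fell, against 18.4% of all genes tested called higher, among them Inpp5d, a lipid phosphatase (5.86 ± 1.65 against 0.952 ± 0.0557 FPKM), Ptprc, which encodes the pan-leukocyte antigen CD45 (3.39 ± 1.06 against 0.282 ± 0.124 FPKM), and Lrmp (6.11 ± 1.79 against 1.29 ± 0.183 FPKM). The phosphatase Ptpn6, the most abundant, had a log2 fold change of 0.61 and was not called. Leukocyte markers moved with them as given above, and their part was not tested. Among 7 tested transcription factors, Spib rose (9.86 ± 3.04 against 3.42 ± 0.830 FPKM) and Sox9 fell (7.58 ± 0.823 against 17.8 ± 2.69 FPKM, not called on the epithelial scale), and the secretory lineage factor Atoh1 was at 29.2 ± 6.65 against 49.8 ± 6.40 FPKM (log2 fold change -0.77, limma adjusted p = 0.0204, not called). Of 11 tested structural and other genes, Tppp3 (25.8 ± 10.1 against 1.96 ± 0.144 FPKM), Kctd12 (6.03 ± 3.04 against 1.34 ± 0.219 FPKM), and Nradd (4.01 ± 1.42 against 1.14 ± 0.613 FPKM) rose. The actin bundler Vil1 (311 ± 43.9 against 439 ± 14.7 FPKM) and the keratin Krt18 (265 ± 75.5 against 345 ± 33.0 FPKM), the most abundant of that list and present throughout the epithelium, were not called. Without the fold threshold, 4 genes of this list were higher and 3 lower at a limma adjusted p under 0.05. Over all 14657 genes tested, 4238 were higher and 2138 lower in the same way. The 3 lower genes of the list were Cd24a, Nrep, and Vil1, with log2 fold changes of -0.78, -0.76, and -0.51. Espn lay below WT without overlap and was not called (-1.34, limma adjusted p = 0.0758). Cd24a, Nrep, and Espn are named after their values were seen.

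Around the 3 eicosanoid enzymes, 3 lists of 39 genes for eicosanoid synthesis, eicosanoid receptors, and the circuit between tuft cells and type 2 lymphoid cells had 26 genes tested. Of these 9 were called higher and 1 lower, beside 18.4% called higher and 680 of 14657 called lower over all genes tested. The median log2 fold change was 0.59 beside 0.15. Without Gm31629-/- mouse 1, 9 were called higher and 2 lower of 24 tested, against 2690 higher and 766 lower of all 14361 genes tested. These are descriptions too, since 6 of the 26 genes had WT means under 0.5 FPKM. Alox5ap, which presents arachidonic acid to Alox5, was at 2.14, 3.55, and 1.84 FPKM in Gm31629-/- mice and at 0.381, 0.430, and 0.375 FPKM in WT mice (log2 fold change 1.30 ± 0.21, limma adjusted p = 0.00309). Ptgs1, the constitutive cyclooxygenase upstream of Hpgds, was at 15.1, 13.8, and 9.40 FPKM against 1.14, 1.53, and 1.05 FPKM (log2 fold change 2.60 ± 0.21, limma adjusted p = 0.000326). Unlike Hpgds, Alox5ap was highest in mouse 2. Ptgs2, the inducible cyclooxygenase, was at 1.90, 32.5, and 18.0 FPKM against 1.06, 1.31, and 0.685 FPKM, so it was lowest in the Gm31629-/- mouse in which Hpgds was highest. Its log2 fold change was 2.62 ± 0.81 (limma adjusted p = 0.0362), and the call was kept in 1 of 6 fits that left out a mouse, the one without Gm31629-/- mouse 1. With all mice the Ptgs2 call was lost with voom and with no filter (limma adjusted p = 0.0731 and 0.0754). Ggt5, which acts on leukotriene C4, rose (8.87 ± 4.11 against 0.398 ± 0.0547 FPKM), and the epithelial γ-glutamyltransferase Ggt1 fell (3.63 ± 2.36 against 20.5 ± 1.59 FPKM). The most abundant enzymes, Dpep1 (76.3 ± 77.9 against 185 ± 8.08 FPKM) and Mgst2 (25.6 ± 10.3 against 36.4 ± 6.38 FPKM), were not called, nor were the leukotriene B4 receptor genes Ltb4r1 and Ltb4r2, with log2 fold changes of 0.47 and 0.10. The cysteinyl leukotriene receptor genes Cysltr1 and Cysltr2, named after their values were seen, had means under 0.5 FPKM and were not tested. They were read by 215 and 121 fragments in Gm31629-/- mice and by 5 and 10 in WT mice. Of the 7 receptor genes, 3 lay above WT without overlap, against 31.0% of all genes listed, and 0 lay below. Dpep1 was at 163, 12.0, and 54.0 FPKM in Gm31629-/- mice, below all WT mice. Without Gm31629-/- mouse 1 it was called lower (log2 fold change -2.80, limma adjusted p = 0.00858).

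The tuft cell cytokine Il25 was close to the floor, at 0.102, 0.306, and 0.153 FPKM in Gm31629-/- mice and 0.0508, 0.0522, and 0.10 FPKM in WT mice, with 11 and 4 fragments in all, and was not tested. In its circuit, Il33 (5.63, 39.0, and 5.85 against 0.618, 2.19, and 0.516 FPKM), an alarmin of stromal and epithelial cells, rose with a log2 fold change of 2.62 ± 0.70 (limma adjusted p = 0.0216), a call lost without WT mouse 1 or WT mouse 3 (limma adjusted p = 0.0703 and 0.0799). The cytokine receptor chain Il2rg (4.36 ± 1.51 against 0.755 ± 0.203 FPKM) and the decoy receptor Il13ra2 (1.59 ± 0.533 against 0.0160 ± 0.0139 FPKM, 2 fragments in all in WT) also rose. Of the genes given here as called in these wider lists, all but Rgs13, Chat, Itpr3, Ptgs2, Il33, and Areg kept the call in every fit that left out a mouse. Areg, a ligand of the EGF receptor, was called higher (74.4 ± 25.4 against 35.0 ± 3.84 FPKM) but kept the call in 1 of 6 fits that left out a mouse, the one without Gm31629-/- mouse 3. On the median ratio scale Areg fell short of the fold threshold (0.75). Il13ra1 was at 56.1 ± 5.55 against 33.4 ± 13.7 FPKM and was not called.

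**Figure D5:**
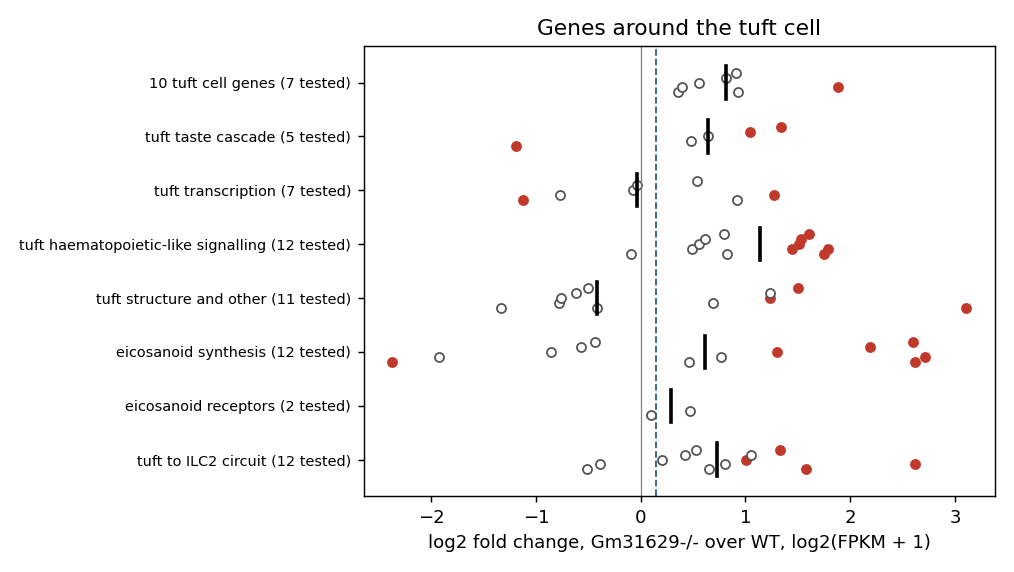
Log2 fold changes (Gm31629-/- over WT, log2(FPKM + 1) scale) of the tested genes of each list, with filled points for called genes, a black bar for the median of the list, and a dashed line at the median of all genes tested, 0.15. In the lists of signalling genes shared with blood cells and of eicosanoid synthesis 6 of 12 genes each are called, in the latter 5 higher and 1 lower, and the transcription and structural lists have medians below 0.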

How the data were processed

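The authors deposited FPKM values for 27546 genes in 6 libraries made with a TruSeq kit. The submitters' processing notes name GRCm38, HISAT2 2.1.0, and HTSeq 0.6.0, and the annotation and strand setting are not given in the sources used here. The study's own test, DEGseq, needs reads. Its methods speak of RNA pooled from 3 mice per genotype, whereas the table has 3 columns per genotype. Libraries were treated as separate mice, which is an assumption, and p-values measure the spread between libraries. Levels of Gm31629 itself were not analysed.

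Symbols, positions, and exon lengths came from GENCODE M21 on GRCm38, which matched 27488 identifiers. One fragment is worth a fixed FPKM at a given length and depth, and 96.28% to 97.25% of values of up to 20 fragments were within 0.1 of a whole number. For Sh2d6 they were not, so no fragments are given. Counts carry counting error only, and 0 allows up to 3 fragments. Exons of Avil, Trpm5, Ltc4s, and Dclk1 overlap genes on the other strand by 165 (Tsfm), 220 (Tssc4), 268 (Gm26542), and 87 and 27 bases (Gm42609 and Gm21954).

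Genes with a mean of at least 0.5 FPKM were fitted in limma 3.58.1 (R 4.3.3, trend, Benjamini-Hochberg over 14657 genes) on log2(FPKM + 1). The script was tested on simulated data. Alternatives were a pseudocount of 0.1, no filter or a mean of 0.1 FPKM, TPM, median ratio, and epithelial marker scales, no trend, voom on recovered fragments, no fold threshold, the replicate number as a block, and leaving out each mouse. The 10 genes and all lists were chosen with earlier results of these data known. Named genes were the 10, the 3 most changed called genes in each direction and the 2 most abundant of each other tuft, eicosanoid, and circuit list, and Il25, Chat, Sucnr1, Alox5ap, and Ptgs1. Some genes that this rule selects are not reported here.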

Additional observations from a re-analysis of the deposited data

How the results depend on the processing

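Of the 10 tuft cell genes, 1 was called on the main settings and 4 (Hpgds, Gnat3, Dclk1, and Avil) without the fold threshold, with a pseudocount of 0.1, on the epithelial marker scale, and with voom. In these 4 settings in turn, 4238, 3700, and 5049 of all 14657 genes tested and 3644 of 14647 were called higher. Leaving out each mouse gave 1 to 3 called, 2 without Gm31629-/- mouse 2 and 3 without Gm31629-/- mouse 3. In those 2 fits, 2487 of 14332 and 2913 of 14535 genes tested were called higher. Hpgds was called under every alternative run. The log2 fold change of Sh2d6 lay between -0.032 and 0.56 when each mouse was left out. Over all genes, 3384 were called, 6376 without the fold threshold and 5263 on the epithelial scale, for which the cause was not tested. Higher and lower calls numbered 2704 and 680, 2242 and 1225 on the median ratio scale, and 5049 and 214 on the epithelial scale, with the median of all genes at 0.15, -0.05, and 0.71. On those 2 scales Trpm5 was at 0.23 and 0.85 (limma adjusted p = 0.498 and 0.0358) and Sh2d6 at 0.16 and 0.90 (0.690 and 0.0520). Alox5 was at 0.41 and 0.96 (limma adjusted p = 0.129 and 0.00983). Whether Trpm5 and Alox5 had an adjusted p under 0.05 thus depended on the scale. Calls in the wider tuft cell lists numbered 14, and 24 without the fold threshold. Those 24 were 18 higher and 6 lower of 35 tested, beside 4238 higher and 2138 lower of all 14657. Calls in the eicosanoid and circuit lists numbered 10, and 6 to 11 when each mouse was left out. The 6, without WT mouse 3, were 5 higher and 1 lower of 26 tested, beside 2295 higher and 515 lower of all 14842.

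Same-numbered mice did not deviate together (correlations 0.036, -0.11, and 0.014), so the numbers do not pair the mice. With the replicate number as a block, 1 of the 10 genes and 3357 of all genes were called. Gnat3 had no value without Gm31629-/- mouse 1. Gfi1b and Ltc4s could be tested only with a lower filter or none, and Pou2f3 also in 4 of the fits that left out a mouse (limma adjusted p = 0.261 to 0.569). Depth limits Gnat3 (9 fragments in WT), Gfi1b, and Ltc4s.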
